A study of Mus musculus with 8 samples.

Results

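The receptors described here are 10 genes for surface molecules that tune the response of T cells: *Cd28*, *Icos*, *Ctla4*, *Pdcd1* and *Btla* of the CD28 family, and the checkpoint and activation molecules *Lag3*, *Havcr2*, *Tigit*, *Cd160* and *Entpd1*. They were chosen by name and found by symbol among the 55536 genes of the count tables, and all 10 were detected in every library. Their mRNA was measured in cytotoxic CD8+ T cells grown from OT-1 mice, whose transgenic T cell receptor recognises the ovalbumin peptide SIINFEKL. The mice carried the transgene on a Rag-1KO background on C57BL/6, so they make no other T or B cells, and donors were 5 to 12 weeks old. Lymph node cells of both groups were activated with 100 nM SIINFEKL for 2 days and then kept in 20 ng/ml recombinant human IL-2 for 2 days. During that second period the GC7 group received 10 µM GC7, while the Mock group received the same volume of the acetic acid vehicle. Each group had 4 biological replicates. The comparison asks how the mRNA of cultured T cells changes with GC7, a drug used to block hypusination of eIF5a. GC7 is a spermidine analogue that inhibits DHPS, the first enzyme of hypusination. The authors also infer off-target effects of GC7, and changes through hypusination or through other targets cannot be told apart here.

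CD28 and ICOS are costimulatory receptors, which add to the signal of the T cell receptor when they bind CD80 and CD86, or ICOS ligand, on another cell. CTLA-4 binds the same ligands as CD28 with higher affinity and restrains activation, and PD-1 and BTLA recruit phosphatases that dampen receptor signalling. LAG-3, TIM-3 (encoded by *Havcr2*) and TIGIT are further inhibitory receptors of activated or chronically stimulated T cells, CD160 is a receptor that shares the ligand HVEM with BTLA, and CD39 (encoded by *Entpd1*) is an enzyme that breaks down extracellular ATP. Most of these receptors are absent or low on naive CD8+ T cells and are induced by antigen. eIF5a helps ribosomes past stretches that translate poorly, among them consecutive prolines.

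Of the 10 coding sequences, 3 held a run of at least 3 proline codons, and these were the coding sequences of *Cd28*, *Icos* and *Ctla4*. Such runs were present in 24.7% of the tested protein-coding genes with a full coding sequence (2508 of 10162). Each of the 3 runs lay in exon 2, and in CD28 and CTLA-4 this stretch is known to contact CD80 and CD86. The runs are given here in the GRCm38 build, on the + strand and 5′ to 3′, because proline runs are a known context of eIF5a action. Capitals mark the proline codons, of which the first is codon 120 in *Cd28*, codon 136 in *Ctla4* and codon 116 in *Icos*.
Cd28, chr1:60763269-60763301: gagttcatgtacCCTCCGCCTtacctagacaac
Ctla4, chr1:60912707-60912739: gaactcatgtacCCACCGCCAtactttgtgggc
Icos, chr1:60993977-60994009: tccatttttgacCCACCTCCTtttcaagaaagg
The coding sequences of *Pdcd1*, *Btla*, *Lag3*, *Havcr2*, *Tigit*, *Cd160* and *Entpd1* held no such run. The values below are of mRNA, and translation of these receptors was not measured here.

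Total counts were 20045041 to 25284730 in the Mock libraries and 17528776 to 23449164 in the GC7 libraries. Levels are given as CPM, counts relative to the library's total after scaling with TMM factors, which were 0.935 to 0.983 in Mock and 1.03 to 1.04 in GC7. All 7 T cell markers were tested, with a summed level of 4172 to 4930 CPM in Mock and 3616 to 3924 CPM in GC7, so the markers of the labelled cell type were present. Of 5 B cell markers 1 was tested, and their sum was 7.02 to 10.1 CPM in Mock and 4.63 to 5.93 CPM in GC7, with *Ms4a1* and *Pax5* at or near 0. This sum came mostly from *Cd79b*, and *Cd79a* had 10 to 27 counts a library. Likewise 1 of 5 myeloid markers was tested, at a sum of 8.44 to 11.1 CPM and 5.73 to 9.65 CPM, with *Lyz2*, *Csf1r* and *Adgre1* at or near 0. The tested marker, *Cd68*, gave most of this sum, with 159 to 213 counts in Mock and 123 to 199 in GC7. *Itgam* had 4 to 8 counts in Mock and 0 to 2 in GC7. None of the 4 NK cell markers was tested (3.16 to 6.25 CPM in Mock and 1.12 to 1.73 CPM in GC7), and 2 of 5 dendritic cell markers were (4.85 to 6.63 CPM and 4.55 to 5.30 CPM). Of the latter, *Xcr1* had 5.14 CPM in Mock and 0.631 CPM in GC7, and *Zbtb46* had 0.457 CPM and 4.11 CPM, so each passed the filter only through the group where it was high. In the list for CD4+ and regulatory T cells, *Cd4* had 2 to 9 counts a library and *Foxp3* had 12 to 23. The sum of 93.1 to 97.5 CPM in Mock and 75.6 to 85.0 CPM in GC7 came almost wholly from *Zbtb7b*. The stromal list summed to 51.5 to 56.2 CPM in Mock and 30.3 to 32.3 CPM in GC7, almost wholly from *Pecam1*. The part of other cell types in the receptor values was not tested. In bulk samples, fewer cells of a type and less RNA per cell cannot be told apart.

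GC7-treated cells held less mRNA of most of the receptors, but 2 of them moved the other way. *Lag3*, *Ctla4* and *Havcr2* fell by more than 2-fold, *Icos*, *Pdcd1* and *Entpd1* fell by less, *Btla* rose 2.72-fold and *Cd160* rose 1.45-fold, while *Cd28* and *Tigit* did not pass the test. In edgeR's quasi-likelihood test at an FDR under 0.01 (Benjamini-Hochberg over 11189 genes), 6 of the 10 receptors were thus called lower, against 23.5% of all genes tested, and 2 were called higher, against 23.0%. Beyond 2-fold as well, 3 were lower (5.31% of all genes) and 1 was higher (3.17%). With library totals in place of TMM factors, *Ctla4* and *Havcr2* were both at −0.96 on the log2 scale and only *Lag3* stayed past 2-fold on the lower side. The median log2 fold change of the 10 was −0.58, and that of all genes was 0.02. The 4 Mock and 4 GC7 values did not overlap for 7 of the receptors, which held for 55.6% of all genes. In 6 the GC7 values were lower, as in 27.5% of all genes, and in 1 they were higher, as in 28.1%. With 46.6% of all genes called in one direction or the other, the direction and size of a change tell more about the receptors than its call.

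**Figure D1:**
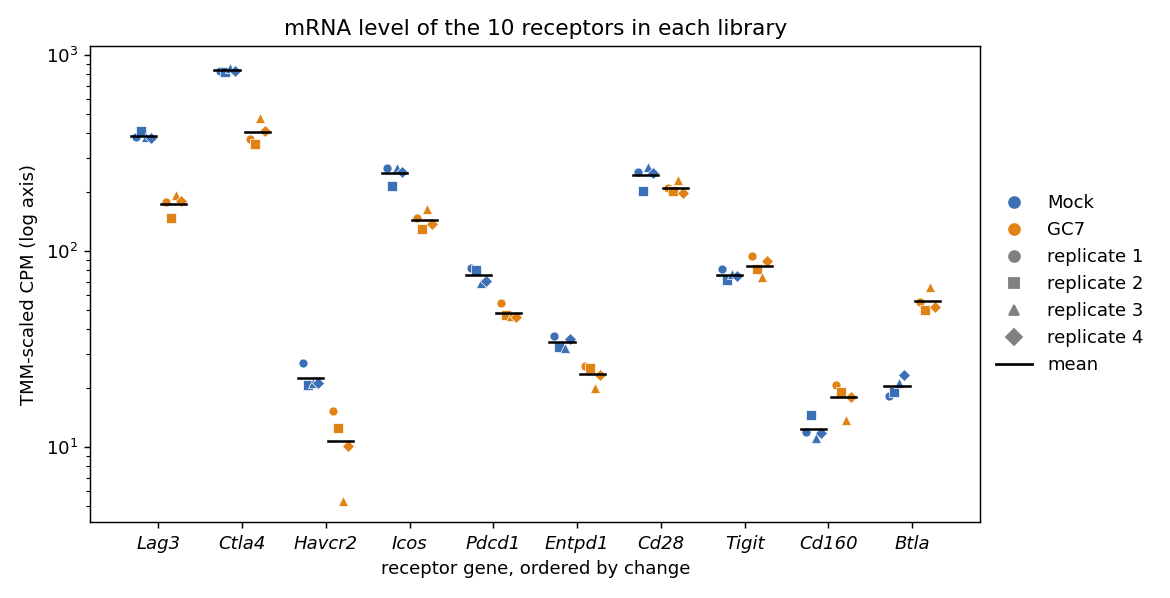
TMM-scaled CPM (log axis) of the 10 receptor genes in each of the 4 Mock and 4 GC7 libraries, with symbols for the replicate numbers and a line at each group mean; genes are ordered by their change. The GC7 libraries lie below all Mock libraries for *Lag3*, *Ctla4*, *Havcr2*, *Icos*, *Pdcd1* and *Entpd1* and above them for *Btla*, while the groups overlap for *Cd28*, *Tigit* and *Cd160*.

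*Cd28*, *Ctla4* and *Icos* follow each other on chromosome 1 with no other tested protein-coding gene between them, and responded to different degrees. *Cd28* (ENSMUSG00000026012, chr1:60716800-60773359), the receptor for the main costimulatory signal of naive T cells, was present at 255, 204, 271 and 251 CPM in Mock replicates 1 to 4 and at 211, 203, 231 and 198 CPM in the GC7 replicates. Mock replicate 2 lay with the GC7 libraries and the groups overlapped. The means of 245 ± 29.0 and 211 ± 14.5 CPM (SD, n = 4) gave a log2 fold change of −0.22 (SE 0.0872) that did not pass the threshold (edgeR, FDR = 0.0487). This rested on Mock replicate 2, since without it *Cd28* was called lower (log2 fold change −0.30, edgeR, FDR = 9.3e-04).

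*Icos* (ENSMUSG00000026009, chr1:60977927-61000320), the inducible costimulator, had 266, 215, 266 and 253 CPM in Mock and 147, 130.4, 165 and 139 CPM in GC7. Every GC7 library was below every Mock library. The mean fell from 250.1 ± 24.3 to 145 ± 14.7 CPM (SD, n = 4), a log2 fold change of −0.78 (SE 0.0882, edgeR, FDR = 1.07e-05).

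*Ctla4* (ENSMUSG00000026011, chr1:60887000-60915832) had the most mRNA of the 10 genes. It was measured at 837, 826, 866 and 828 CPM in Mock and at 377, 353, 477 and 413 CPM in GC7. The Mock values were tightly grouped, and the highest GC7 library was still far below the lowest of them. The mean fell from 839 ± 18.5 to 405 ± 54.0 CPM (SD, n = 4), which is 2.07-fold (log2 fold change −1.05, SE 0.0878, edgeR, FDR = 8.2e-07).

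*Pdcd1* (ENSMUSG00000026285, chr1:94038305-94052553, − strand) encodes PD-1 and lies farther along the same chromosome. Its levels were 82.4, 80.0, 68.9 and 70.5 CPM in Mock and 54.6, 47.1, 46.7 and 46.1 CPM in GC7, with no overlap. GC7 replicates 2, 3 and 4 nearly coincided and replicate 1 was higher. The mean went from 75.5 ± 6.76 to 48.6 ± 3.99 CPM (SD, n = 4), a log2 fold change of −0.63 (SE 0.0809, edgeR, FDR = 3.1e-05).

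*Btla* (ENSMUSG00000052013, chr16:45224315-45257670) was the member of the CD28 family that rose. It had 18.4, 19.1, 21.4 and 23.4 CPM in Mock and 55.3, 50.4, 66.1 and 52.3 CPM in GC7, so the lowest GC7 library was more than double the highest Mock library. The mean rose from 20.6 ± 2.27 to 56.0 ± 7.01 CPM (SD, n = 4), a log2 fold change of 1.44 (SE 0.102, edgeR, FDR = 2.0e-07). BTLA is also a receptor of B cells, whose marker sum came mostly from *Cd79b* (121 to 223 counts in Mock and 69 to 120 in GC7), with *Ms4a1* and *Pax5* at 0 in all 8 libraries.

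*Lag3* (ENSMUSG00000030124, chr6:124904361-124911705, − strand), a CD4-related receptor that binds MHC class II, showed the greatest reduction of the 10, except that *Havcr2* fell more without GC7 replicate 1 (−1.25 against −1.16) or without GC7 replicate 2 (−1.12 against −1.08). Mock libraries had 383, 413, 384 and 377 CPM and GC7 libraries had 179, 149, 194 and 179.9 CPM. The groups were far apart compared with their spread. The mean fell from 389 ± 16.4 to 175 ± 19.0 CPM (SD, n = 4), which is 2.22-fold (log2 fold change −1.15, SE 0.0798, edgeR, FDR = 1.7e-07).

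*Havcr2* (ENSMUSG00000020399, chr11:46454935-46481255), which encodes TIM-3, was measured at 27.0, 20.8, 21.4 and 21.3 CPM in Mock and at 15.3, 12.5, 5.36 and 10.2 CPM in GC7. All GC7 libraries were lower than all Mock libraries, but they varied widely among themselves, and GC7 replicate 3 rested on 96 counts. The mean of 22.6 ± 2.94 CPM fell to 10.8 ± 4.22 CPM (SD, n = 4), a log2 fold change of −1.05 with the largest error of the 10 (SE 0.222, edgeR, FDR = 0.00144). Leaving out single libraries moved it between −1.25 and −0.83, always past the FDR threshold.

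*Tigit* (ENSMUSG00000071552, chr16:43648867-43664146, − strand), a receptor for PVR, had 81.6, 71.7, 76.5 and 74.8 CPM in Mock and 94.3, 81.1, 74.3 and 89.1 CPM in GC7. GC7 replicate 3 was within the Mock range. The means of 76.1 ± 4.13 and 84.7 ± 8.80 CPM (SD, n = 4) differed by 0.15 on the log2 scale (SE 0.0785), which did not pass the test (edgeR, FDR = 0.109). Without Mock replicate 2 and GC7 replicate 3, a pair left out after the data were seen, *Tigit* was called higher by 0.19 (edgeR, FDR = 0.0095).

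*Cd160* (ENSMUSG00000038304, chr3:96798763-96829351, − strand) had the least mRNA of the set in Mock, at 12.05, 14.6, 11.2 and 11.9 CPM, and 20.8, 19.3, 13.7 and 18.2 CPM in GC7. The ranges overlapped because GC7 replicate 3 was below Mock replicate 2. The mean of 12.4 ± 1.47 CPM rose to 18.0 ± 3.05 CPM (SD, n = 4), with a log2 fold change of 0.53 (SE 0.129, edgeR, FDR = 0.00342). This call was the least stable of the 8: it was lost, at an FDR of 0.0115 to 0.0140 in edgeR, without Mock replicate 1, 3 or 4 or without GC7 replicate 1 or 2. CD160 is also carried by NK cells, whose marker sum came mostly from *Fcer1g* (52 to 134 counts in Mock and 11 to 22 in GC7), while *Ncr1* had 0 to 1 counts in Mock and 0 to 9 in GC7 and *Klrb1c* had 1 to 4 and 1 to 12. The part of NK cells in the *Cd160* level was not tested.

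*Entpd1* (ENSMUSG00000048120, chr19:40612366-40741602), the gene of the ATP-degrading enzyme CD39, had 36.8, 32.6, 32.2 and 35.8 CPM in Mock and 26.0, 25.4, 20.1 and 23.5 CPM in GC7. The groups did not overlap. The mean fell from 34.4 ± 2.31 to 23.8 ± 2.66 CPM (SD, n = 4), a log2 fold change of −0.53 (SE 0.0891, edgeR, FDR = 2.8e-04). A processed pseudogene, *Gm8783*, overlaps *Entpd1* on the same strand and had up to 264 counts a library. Of the other annotations that overlap a member, *Gm37039* in *Icos* had at most 100 counts, *Rpl18-ps1* in *Ctla4* at most 48, and *Pdzk1*, on the strand opposite *Cd160*, at most 12.

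**Figure D2:**
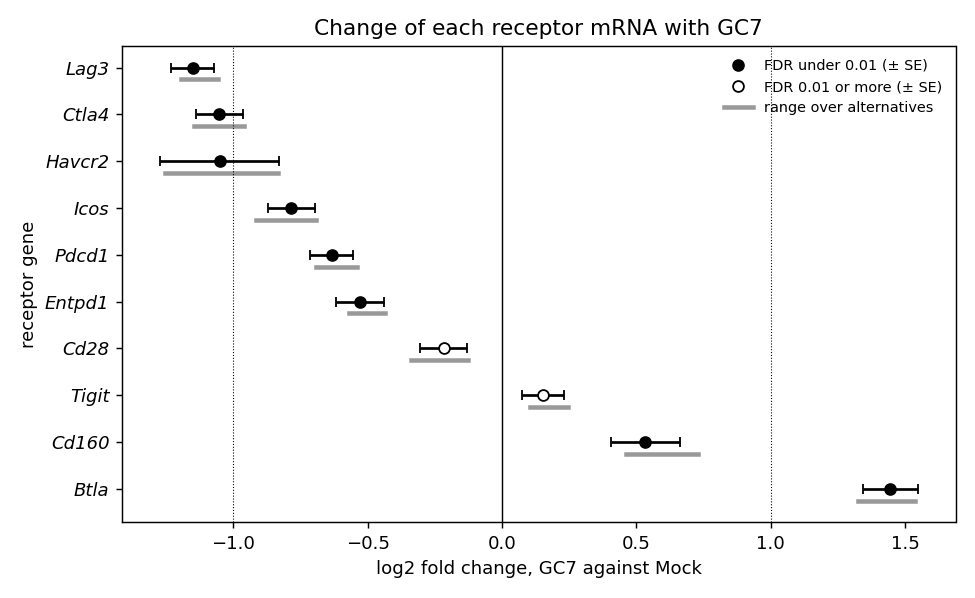
Log2 fold change of each receptor (x axis, GC7 against Mock, negative where GC7 is lower) with its SE, filled where the FDR was under 0.01; the grey bar below each point spans the 16 alternative analyses. No bar crosses 0, and those of *Lag3*, *Ctla4*, *Havcr2*, *Icos*, *Pdcd1* and *Entpd1* lie on the negative side.

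The libraries with the highest and lowest levels differed between receptors. Among the GC7 libraries, replicate 3 had the highest level of 5 receptors (*Cd28*, *Icos*, *Ctla4*, *Btla* and *Lag3*) and the lowest of 4 (*Havcr2*, *Tigit*, *Cd160* and *Entpd1*). GC7 replicate 1 had the highest level of the other 5, *Pdcd1* among them. In Mock, replicate 2 was lowest for *Cd28*, *Icos*, *Ctla4*, *Havcr2* and *Tigit* and highest for *Lag3* and *Cd160*. Mock replicate 1 was highest for *Pdcd1*, *Havcr2*, *Tigit* and *Entpd1*, as GC7 replicate 1 was in its group, and Mock replicate 3 was highest for *Cd28*, *Icos* and *Ctla4*, as GC7 replicate 3 was. Without Mock replicate 2 and GC7 replicate 3 together, a pair left out after the data were seen, 7 receptors were called lower and 3 higher. Calls also rose over all genes, to 2985 lower and 3049 higher, against 2635 and 2579 in the main fit.

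To compare one receptor with another, CPM were divided by the exon length of each gene in kilobases. In Mock the order was *Ctla4* (360.2 CPM per kb), *Lag3* (185), *Tigit* (82.9), *Icos* (72.9), *Cd28* (40.0), *Pdcd1* (39.1), *Havcr2* (8.32), *Entpd1* (6.16), *Btla* (6.06) and *Cd160* (4.71). Levels of *Cd28* and *Pdcd1*, of *Entpd1* and *Btla*, and of *Btla* and *Cd160* overlapped between libraries, and the other neighbours in the order did not. In GC7 *Ctla4* stayed first (174 CPM per kb) but *Tigit* (92.2) was now second, with a range that overlapped that of *Lag3* (83.1). They were followed by *Icos* (42.3), *Cd28* (34.5), *Pdcd1* (25.2), *Btla* (16.5), *Cd160* (6.81), *Entpd1* (4.26) and *Havcr2* (3.99), of which the last pair overlapped. *Btla* thus moved from ninth to seventh place, and *Havcr2* from seventh to last.

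The summed level of the 10 receptors was 790.4 to 819 CPM per kb in Mock and 437 to 518 CPM per kb in GC7. *Ctla4* and *Lag3* made up most of this pool in both groups. The share of *Ctla4* was 44.8% ± 0.613 in Mock and 35.9% ± 2.79 in GC7 (SD, n = 4), and that of *Lag3* was 22.9% ± 1.25 and 17.2% ± 0.723. The largest gain in share was that of *Tigit*, from 10.3% ± 0.413 to 19.2% ± 2.41, although its own level did not pass the test. As the summed level fell, a share could rise without a rise in level. *Btla* went from 0.753% ± 0.0888 to 3.41% of the pool, and *Cd28* from 4.97% ± 0.524 to 7.15% ± 0.393. The share of *Icos* was 9.05% in Mock and 8.76% in GC7, since it fell about as much as the pool.

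**Figure D3:**
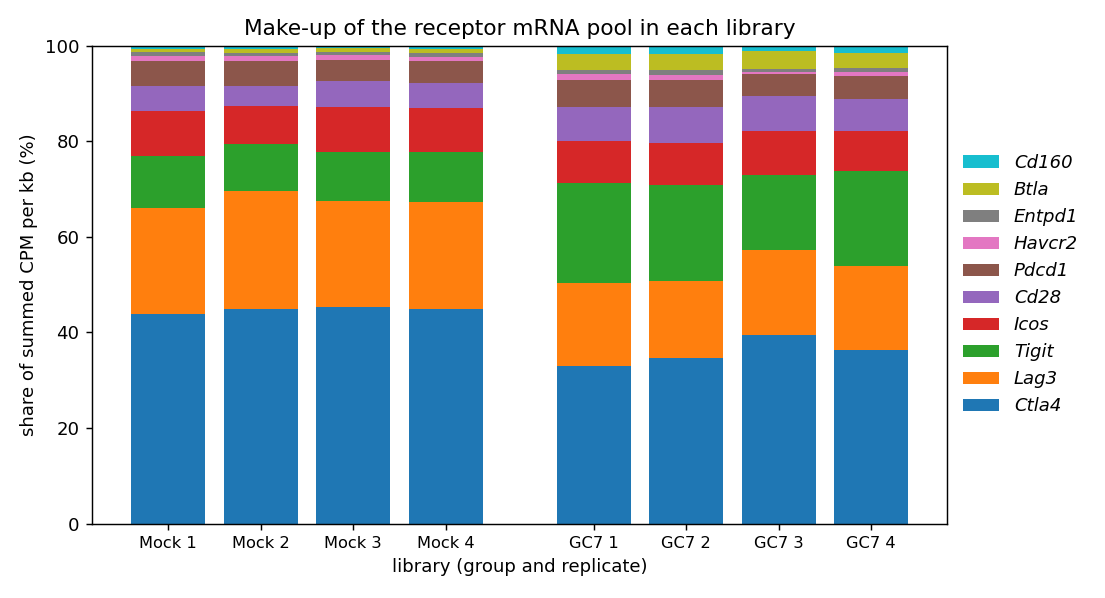
Share of each receptor in the summed length-scaled level of all 10 (y axis, percent of summed CPM per kb), as 1 stacked bar for each of the 8 libraries. In GC7 the *Ctla4* and *Lag3* segments are smaller and the *Tigit* and *Btla* segments larger than in Mock; GC7 replicate 3 keeps the largest *Ctla4* segment of its group.

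Ratios of counts within a library need no scaling between libraries, and 3 of them set a costimulatory gene against another receptor. The count ratio of *Cd28* to *Ctla4*, which compete for CD80 and CD86, was 0.305, 0.247, 0.313 and 0.303 in Mock and 0.561, 0.576, 0.485 and 0.481 in GC7. Every GC7 library was higher than every Mock library. The mean rose from 0.292 ± 0.0304 to 0.526 ± 0.0498 (SD), a log2 difference of 0.85 (two-sided exact permutation test, n = 4 against 4, p = 0.0286, adjusted over the 3 ratios 0.0429), where 0.0286 is the smallest p that this design allows.

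The count ratio of *Icos* to *Cd28*, which compares an induced with a constitutive costimulator, was 1.04, 1.06, 0.983 and 1.01 in Mock and 0.698, 0.642, 0.712 and 0.698 in GC7. It was near 1 in all Mock libraries and lower in all GC7 libraries. Its mean fell from 1.02 ± 0.0327 to 0.687 ± 0.0311 (SD), a log2 difference of −0.57 (two-sided exact permutation test, n = 4 against 4, p = 0.0286, adjusted 0.0429). The count ratio of *Pdcd1* to *Cd28* was 0.323, 0.393, 0.254 and 0.281 in Mock and 0.258, 0.232, 0.202 and 0.232 in GC7. GC7 replicate 1 was above Mock replicate 3, so the ranges overlapped. The log2 difference was −0.42, with an SD on that scale of 0.27 in Mock and 0.15 in GC7. Its p was above the smallest that this design allows (two-sided exact permutation test, n = 4 against 4, p = 0.0571, adjusted 0.0571).

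**Figure D4:**
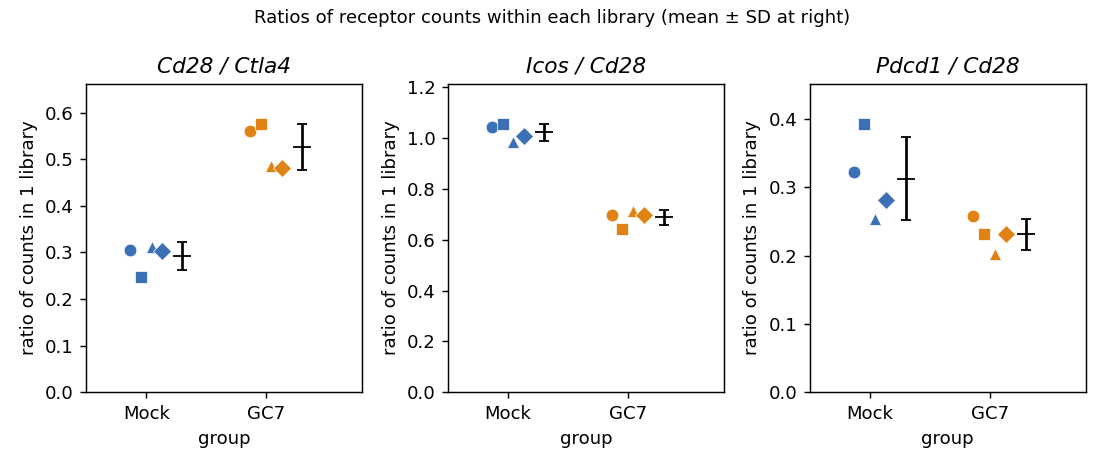
Count ratios of *Cd28* to *Ctla4*, *Icos* to *Cd28* and *Pdcd1* to *Cd28* in each library (y axes, ratio of counts, from 0), for Mock (blue) and GC7 (orange), with symbols for replicates 1 (circle), 2 (square), 3 (triangle) and 4 (diamond) and the mean ± SD at the right of each group. The first ratio is higher and the second lower in all GC7 libraries, and the third overlaps.

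The ligands of these receptors were read from the same cells, since activated T cells carry some of them. Of 14 ligand genes 10 were tested, of which 4 rose (23.0% of all genes did), 3 fell (23.5% of all genes) and 3 did not pass the test, with a median log2 fold change of −0.14. *Cd80*, a ligand of both CD28 and CTLA-4, rose from 51.3 ± 4.61 to 133 ± 11.3 CPM (SD, n = 4), a log2 fold change of 1.38 (SE 0.0815, edgeR, FDR = 4.4e-08). *Pdcd1lg2*, which encodes the PD-1 ligand PD-L2, rose from 4.07 ± 0.596 to 9.53 ± 0.942 CPM (log2 fold change 1.23, SE 0.132, edgeR, FDR = 7.3e-06). The others that rose were *Cd274* (PD-L1, log2 fold change 0.73) and *Tnfrsf14* (HVEM, the ligand of BTLA and CD160, 0.59), and those that fell were *Nectin2* (−0.91), *Lgals3* (−0.52) and *Hmgb1* (−0.22). *Pvr*, the main ligand of TIGIT, was at −0.20 and did not pass (edgeR, FDR = 0.0549). *Cd86*, *Nectin3*, *Fgl1* and *Ceacam1* were under the filter. *Ceacam1*, a ligand of TIM-3 named after its values were seen, had 4 to 12 counts in Mock and 40 to 64 in GC7, and it had no test.

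Other inhibitory and costimulatory receptors were divided. Of 13, 11 were tested, and 5 rose, 4 fell and 2 did not pass, with a median log2 fold change of −0.14, beside 23.0% of all genes higher and 23.5% lower. *Cd200r1*, an inhibitory receptor for CD200, rose from 3.90 ± 0.626 to 14.6 ± 1.699 CPM (SD, n = 4, log2 fold change 1.91). *Cd226*, the activating receptor that competes with TIGIT for PVR, rose from 9.31 ± 1.18 to 23.3 ± 2.74 CPM (1.32). In the other direction, the collagen receptor gene *Lair1* fell from 10.3 ± 1.63 to 3.72 ± 1.14 CPM (−1.46), and *Slamf6*, a self-binding receptor of the SLAM family, fell from 25.1 ± 3.87 to 11.8 ± 2.94 CPM (−1.10). These 4 had an FDR of 7.9e-05 or less in edgeR.

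The molecules that pass on the receptors' signals mostly had less mRNA. Of the 14 signalling partners 10 fell, where 23.5% of all genes did, 2 rose, where 23.0% did, and 2 did not pass. Their median log2 fold change was −0.43, and none was past 2-fold. Those that fell include the phosphatase genes *Ptpn6* (SHP-1, −0.68) and *Inpp5d* (SHIP-1, −0.70), the kinase *Lck* (−0.64), which phosphorylates the tails of CD28 and PD-1, and *Prkcq* (−0.65), a kinase downstream of CD28. *Ptpn11*, which encodes SHP-2, the phosphatase bound by PD-1, rose by 0.37 (SE 0.071). These 5 were chosen as examples after their values were seen. Of 11 tested genes for trafficking, shedding and turnover, 5 rose (23.0% of all genes), 4 fell (23.5%) and 2 did not pass, none past 2-fold. They include *Adam10* (0.39) and *Adam17* (−0.25), the proteases that shed LAG-3, and *Fbxo38* (−0.24), a ubiquitin ligase of PD-1, also picked as examples.

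Among 16 tested transcription factors linked to checkpoint expression, 6 rose, 6 fell and 4 did not pass, with a median log2 fold change of −0.13, where 23.0% of all genes rose and 23.5% fell. *Nr4a3*, a nuclear receptor induced by T cell receptor signals, rose from 13.1 ± 2.62 to 69.8 ± 11.3 CPM (SD, n = 4), a log2 fold change of 2.42 (SE 0.144, edgeR, FDR = 4.6e-08). *Tox*, known for its role in exhausted T cells, rose from 7.51 ± 0.881 to 24.3 ± 4.15 CPM (1.69), and *Tcf7*, a factor of naive and memory T cells, from 18.6 ± 2.11 to 58.9 ± 9.67 CPM (1.66). *Prdm1*, which encodes the effector factor BLIMP-1, fell from 55.6 ± 6.31 to 22.5 ± 1.63 CPM (−1.30). The FDR of these 3 in edgeR was 4.8e-07 or less. In the ATP and adenosine pathway to which CD39 belongs, 7 of 9 genes were tested, and 2 rose (23.0% of all genes), 3 fell (23.5%) and 2 did not pass, none past 2-fold. *Nt5e*, the gene of CD73, the enzyme after CD39, was at −0.23 (edgeR, FDR = 0.0339), and the adenosine receptor gene *Adora2a* fell by 0.67 on the log2 scale. *Nt5e* and *Adora2a* were named after their values were seen.

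**Figure D5:**
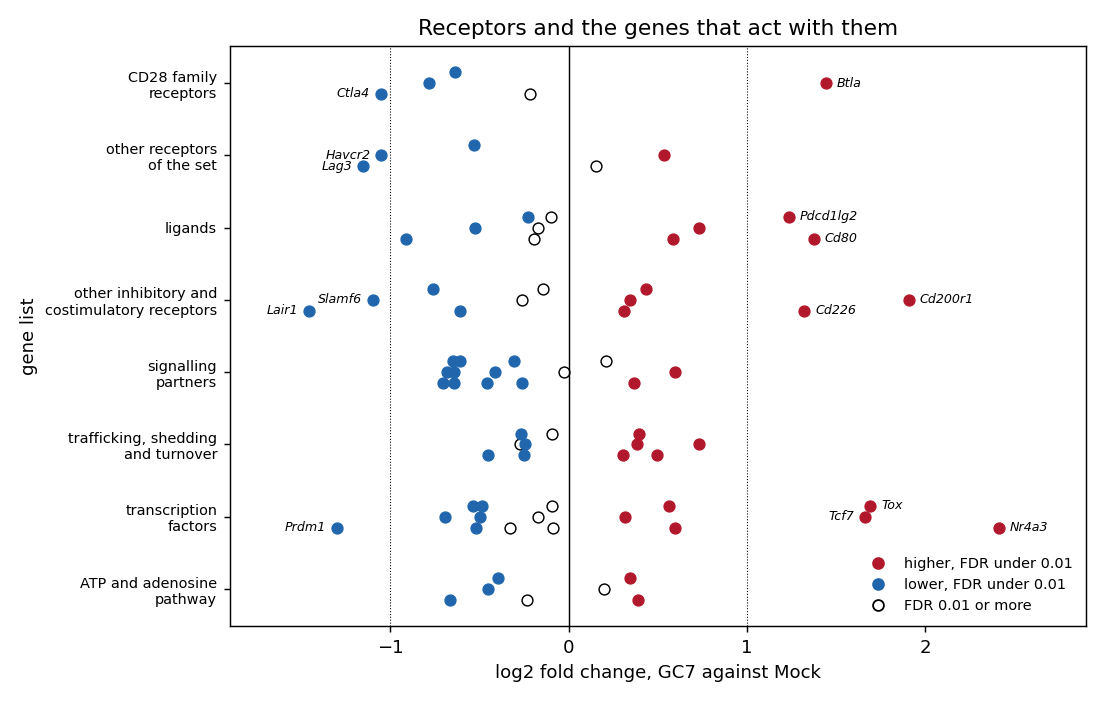
Log2 fold change (x axis, GC7 against Mock) of every tested gene in the 2 receptor groups and 6 related lists (rows), coloured by call, with names beside genes past an FDR of 0.01 and 2-fold; dotted lines mark 2-fold and vertical offsets within a row only separate the points. Signalling partners lie mostly on the lower side, while *Nr4a3*, *Cd200r1*, *Tox* and *Tcf7* stand at the right edge with log2 fold changes of 2.42, 1.91, 1.69 and 1.66.

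The genes beside the receptors on the chromosomes were compared with them, taking the nearest tested protein-coding gene on either side. At the ends of the *Cd28*, *Ctla4* and *Icos* cluster, *Raph1* (−0.15) and *Ino80d* (0.12) did not pass the test. The nearest neighbour of *Lag3*, *Ptms*, starts 1976 bp away and fell by 1.07 on the log2 scale (SE 0.0815, edgeR, FDR = 3.8e-07), close to the value of *Lag3* itself, while *Gpr162* on the other side did not pass (0.24). *Cd200*, which follows *Btla* on chromosome 16 and encodes a ligand of the CD200 receptor, rose by 1.77 (SE 0.101, edgeR, FDR = 3.3e-08), and *Atg3* on the other side did not pass (0.07). *Tigit* lies on chromosome 16 as well, between *Zbtb20* (0.29, not passed) and *Qtrt2*, which rose by 0.996 on the log2 scale.

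Beside *Pdcd1*, *D2hgdh* fell (−0.27) and *Fam174a* rose (0.54). Beside *Havcr2*, *Med7* did not pass (−0.09) and *Rack1*, 2319077 bp away, rose (0.54). *Entpd1* has *Tctn3* at a distance of 133 bp, which rose by 0.50 where *Entpd1* fell, and *Ccnj* (0.34, not passed). The neighbours of *Cd160*, *Rnf115* (−0.20) and *Gpr89* (0.22), did not pass. Besides *Ctla4* and *Icos*, which are neighbours of each other and both fell, the neighbours called in the direction of a receptor were *Ptms* for *Lag3*, *Cd200* for *Btla* and *D2hgdh* for *Pdcd1*. Called against the direction of their receptor were *Fam174a*, *Rack1* and *Tctn3*. Of all genes tested, 23.5% were called lower and 23.0% higher.

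Promoters from RefSeq (GRCm38.p6, 250 bases before the start) were matched for 7 of the receptors, with 9 starts, and *Cd28*, *Icos* and *Lag3* had no entry. The core letters bound by NFAT, GGAAA, were found on either strand in 5 of the 9, against 55.6% of 32851 promoters in all. Letters for RUNX factors, TGTGGT, were in 5 of the 9 (14.0% of all promoters) and those for AP-1, TGANTCA, in 1 (6.75%). TCF letters, CTTTGA, were in 1 (13.8%), BLIMP-1 letters, GTGAAAG, in 1 (3.57%) and the NR4A letters AAAGGTCA in 0 (1.34%). Matches of different motifs may share bases, and both starts of *Cd160* counted toward RUNX. *Havcr2*, which fell past 2-fold, held 0 NFAT matches, while *Pdcd1*, which fell by less, and *Tigit*, which did not pass the test, held 2 each. The relation of these letters to the changes was not tested. The promoters of *Ctla4* and *Btla*, on chromosomes 1 and 16, are shown as examples on the + strand, 5′ to 3′. The NFAT letters or their reverse complement are in capitals, and *Btla* held none in this window.
Ctla4, chr1:60908775-60909024: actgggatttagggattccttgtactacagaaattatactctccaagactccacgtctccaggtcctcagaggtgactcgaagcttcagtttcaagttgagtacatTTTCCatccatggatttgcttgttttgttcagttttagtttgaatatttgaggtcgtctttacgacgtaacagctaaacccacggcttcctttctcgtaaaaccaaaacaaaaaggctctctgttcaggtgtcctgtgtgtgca
Btla, chr16:45224087-45224336: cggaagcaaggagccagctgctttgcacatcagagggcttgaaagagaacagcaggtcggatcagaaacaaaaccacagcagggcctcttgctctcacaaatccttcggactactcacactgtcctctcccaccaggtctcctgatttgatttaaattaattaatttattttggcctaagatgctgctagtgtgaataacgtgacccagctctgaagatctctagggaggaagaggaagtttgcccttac
A match of letters is a description of the sequence, and binding was not measured here.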

How the data were processed

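Messenger RNA of 4 Mock and 4 GC7 libraries was sequenced, and all 8 were used, grouped by their labels. What the authors deposited are unnormalised read counts for each Ensembl gene in separate tables. Reads were trimmed with Cutadapt (version 2.3), aligned with STAR (version 2.7.1a) to the GRCm38 genome and counted against Ensembl (release 96) with featureCounts in Rsubread (version 1.6.4). The strand setting and the handling of reads with several matches are not given in the sources used here. None of the receptors had a near-identical copy in the transcripts (BLAST, version 2.17.0).

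The filter asked for a CPM above 3 in 4 or more of the 8 libraries (CPM, counts relative to the library's total), and all 10 receptors passed. TMM scaling, the quasi-likelihood F test of edgeR (version 4.0.16, in R version 4.3.3) with the group as its only term, and Benjamini-Hochberg adjustment over 11189 genes gave the calls, at an FDR under 0.01. The SE is the log2 fold change divided by the square root of F. The fits were tested on simulated counts. Ratios of counts were compared with two-sided exact permutation tests in scipy (version 1.17.1). Named are all 10 receptors, list genes past an FDR of 0.01 and 2-fold, and the nearest tested protein-coding gene on each side of a receptor, and genes outside this rule are marked as such. The receptors and lists were chosen with earlier results of these data known.

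Alternatives were RLE factors, library totals, DESeq2 (version 1.42.0), limma-voom (limma version 3.58.1), no filter, filterByExpr, a replicate block, other thresholds and libraries left out. Counts of 17528776 to 25284730 per library put the filter at 52.6 to 75.9 counts. Whether same-numbered libraries share an animal is not stated. The main tests treated the libraries as independent, and their p-values refer to variation between these cultures.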

Additional observations from a re-analysis of the deposited data

Results flagged for a closer look

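Over 32 sets of 4 libraries (receptor levels, ratios and scaling factors), a single library stood apart from the other 3 in 4 sets, where the gap to the nearest library divided by the whole range was above Dixon's 95% critical value. About 1 set in 20 does so by chance, or 1.6 of 32. For *Pdcd1* it was GC7 replicate 1, at 54.6 CPM above the other 3 at 46.1 to 47.1 CPM (0.882). For *Havcr2* it was Mock replicate 1, at 27.0 CPM against 20.8 to 21.4 CPM (0.896). Both libraries lie in groups that do not overlap with the other group. For the count ratio of *Cd28* to *Ctla4* it was Mock replicate 2, at 0.247 against 0.303 to 0.313 (0.846), and without it the log2 difference was 0.77 in place of 0.85. The TMM factor of that same library, 0.935, was also apart from those of the other Mock libraries (0.861). Before scaling, Mock replicate 2 had 4790 *Cd28* counts, the fewest in Mock (4979 to 5813 in the others), at the largest Mock total, 25284730. For the same count and total, a lower TMM factor gives a higher CPM, and this library had the lowest factor in Mock. The source of its low *Cd28* level was not tested.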

How the results depend on the processing

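Of 160 repeats of the receptors' log2 fold changes (16 alternatives for each), none changed direction, 152 kept their side of the threshold, 5 lost the call and 3 gained it. The 5 losses were all of *Cd160* with 1 library left out, which put the number of receptors called higher at 1 to 2. The gains were *Cd28* without Mock replicate 2, alone or together with GC7 replicate 3, and *Tigit* without both. Asking for 2-fold as well as an FDR under 0.01 left 594 genes lower and 355 higher, of which 3 and 1 were receptors. With library totals in place of TMM factors, 2056 genes were lower and 3346 higher, against 2635 and 2579, and the median of all genes moved by 0.09 on the log2 scale, while 6 receptors were still lower and 2 higher, 1 of each past 2-fold.

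Same-numbered libraries did not deviate together throughout (r from −0.18 to 0.27, against −0.31 to 0.42 for other pairs). Since only 2 of 4 Mock libraries were most like their own number, the numbers were not taken as pairs. With these numbers as a replicate block, 2485 genes were lower and 2382 higher, and 6 and 2 receptors. Pairing the ratios by number gave the same differences, 0.85 for *Cd28* to *Ctla4*, −0.57 for *Icos* to *Cd28* and −0.42 for *Pdcd1* to *Cd28*, where 4 pairs cannot go below p = 0.125 in a sign-flip permutation test. With 1 library left out they ranged from 0.77 to 0.89, from −0.59 to −0.54 and from −0.52 to −0.31, and 3 against 4 libraries cannot go below an exact p of 0.0571. The lowest count of any receptor was 96, for *Havcr2* in GC7 replicate 3.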
